A study of Homo sapiens with 4 samples.

Results

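The 8 genes described here encode the chains of the interferon receptors and the Janus kinases, and they were chosen by name from the 20323 genes of the deposited table. They are the type I interferon receptor chains IFNAR1 and IFNAR2, the interferon gamma receptor chains IFNGR1 and IFNGR2, and the kinases JAK1, JAK2, JAK3 and TYK2. RNA had been measured in NK-92, an established line of human natural killer cells whose growth depends on interleukin-2. All cells were kept with 100 IU/ml of recombinant interleukin-2, and lentivirus was given with 8 µg/mL polybrene. NK scramble cells carried a control hairpin that targets no gene and NK shADAR1 cells a hairpin against ADAR, which encodes the RNA-editing enzyme ADAR1, with 2 libraries in each group. The labels number the knockdown libraries 1 and 2, and these numbers were read as replicates, although the study also numbers its hairpins in this way. The study states that the knockdown cells it sequenced were NK shADAR1-2, its name for cells with hairpin 2. All libraries come from a single line, so p-values measure the spread between cultures of that line only. NK scramble libraries are called controls and NK shADAR1 libraries knockdown libraries, and values of a group are given in the order replicate 1, replicate 2.

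Interferons act through paired receptor chains that have no enzyme activity of their own. Each chain holds a Janus kinase on its inner side, TYK2 on IFNAR1, JAK1 on IFNAR2 and on IFNGR1, and JAK2 on IFNGR2, and binding of the ligand brings the kinases together so that they phosphorylate STAT factors. JAK3 binds the common gamma chain of the receptors for interleukin-2 and interleukin-15, which keep natural killer cells alive.

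Estimated counts summed to between 37881704 and 39960491 per library, and 11810 genes passed the filter on low counts, among them 7 of the 8 genes described here. Values in CPM are counts scaled to a common depth by the TMM method, and log2 fold changes are NK shADAR1 over NK scramble from the quasi-likelihood test of edgeR, whose p-values were adjusted by Benjamini-Hochberg across the tested genes. A gene was called when its adjusted p was under 0.05 and its fold change at least 1.5. All 13 natural killer cell markers looked at passed the filter, and NCAM1, which encodes CD56, had 573 to 695 CPM. Markers of other blood cells were mixed. Of 9 T cell markers, CD8A and CD8B had 0 counts in all 4 libraries, whereas CD3E had 533 to 778 CPM, TRAC 101 to 140 CPM and CD6 49.3 to 70.4 CPM. Of 6 B cell markers, MS4A1 had 0 counts and PAX5 19.1 to 43.8 CPM, and of 8 myeloid markers, S100A8 had 0 counts and ITGAM, which natural killer cells also express, 19.8 to 27.0 CPM. All tested markers of these lists had log2 fold changes above 0, 4 of 4 for T cells (median 0.26), 2 of 2 for B cells (median 0.68) and 5 of 5 for myeloid cells (median 0.42), with 0 at an unadjusted p under 0.05 in edgeR. Their summed levels were 688 to 848 CPM in the controls and 784 to 977 CPM after knockdown for T cells, 22.1 to 24.6 and 20.1 to 46.2 CPM for B cells, and 26.5 to 29.7 and 33.3 to 37.0 CPM for myeloid cells. Their part in the results below was not tested. For the targeted gene ADAR, the level was 655 and 682 CPM in the controls, against 575 and 482 CPM after knockdown. This is -0.34 as a log2 fold change (standard error 0.20, edgeR adjusted p = 1.00), a difference that was not significant. The groups did not overlap, with both knockdown libraries lower, a pattern found in 12.6% of all tested genes. By qRT-PCR and western blotting, the study reports the knockdown of ADAR1 in its NK shADAR1 cells, measured apart from these libraries. ADAR is itself among the type I interferon targets listed below. In bulk RNA, fewer cells that express a gene and less RNA per cell cannot be told apart.

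None of the 7 tested receptor and kinase genes was called by edgeR, and 0 of the 11810 tested genes were called (0%), by DESeq2 also 0. At an unadjusted p under 0.05 there were again 0 of the 7, against 2.48% of all tested genes in edgeR, and 0 of the 7 in DESeq2, against 1.85% of 15605 genes. The 7 log2 fold changes lay between -0.12 for IFNAR1 and 0.13 for JAK2, with a median of 0.012. The median size of the change, whatever its direction, was 0.094 for these genes and 0.145 for all tested genes. Their 95% intervals reached from -0.55 to 0.73 on the log2 scale, which is 0.683-fold to 1.66-fold, so changes within these bounds could not be told from none with 2 libraries per group. The remaining gene, IFNGR2, had almost no reads in any library and could not be tested.

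**Figure D1:**
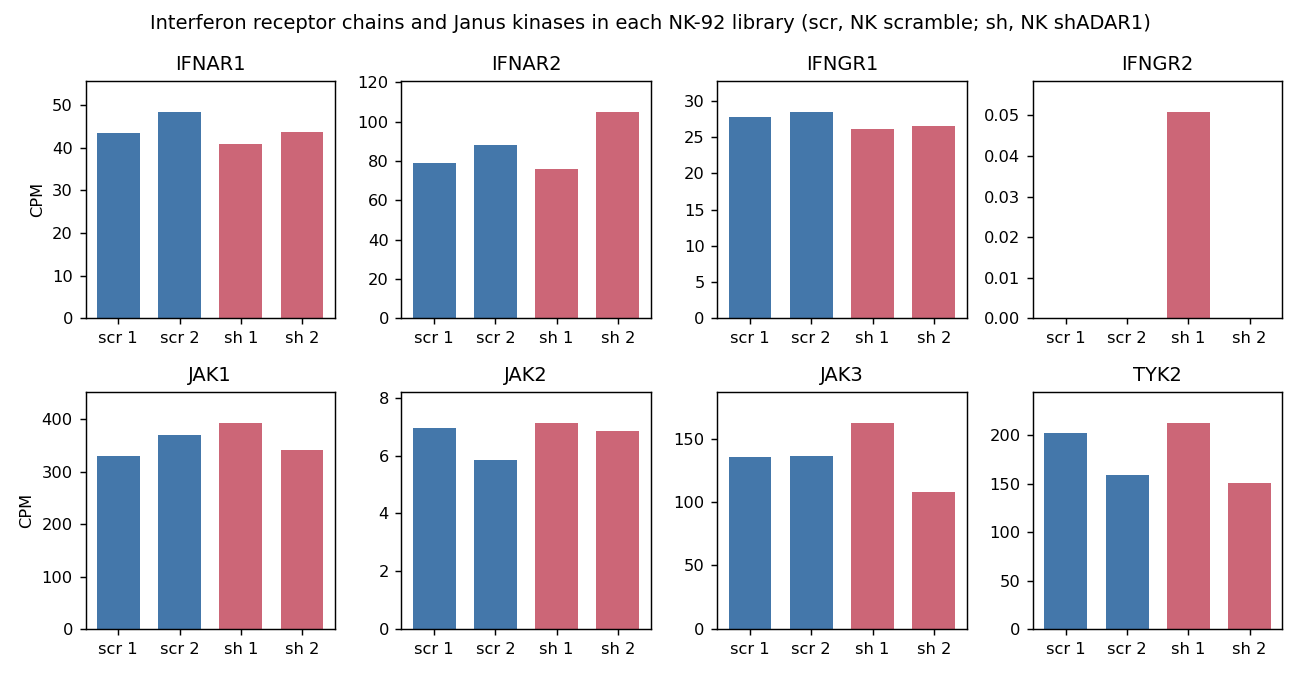
Bars give the CPM of each gene in each library, with NK scramble (scr) in blue and NK shADAR1 (sh) in red, and each panel has its own axis from 0. The groups overlap for every tested gene except IFNGR1, and the IFNGR2 panel ends near 0.05 CPM, the value of 2 counts.

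IFNAR1, the chain that carries TYK2, lies on the plus strand of chromosome 21 from 33324477 to 33359862 (GRCh38, GENCODE release 29). It had 43.3 and 48.3 CPM in the controls, against 40.8 and 43.7 CPM after knockdown. The groups overlapped by a small margin, since NK shADAR1 replicate 2 was just above NK scramble replicate 1. The log2 fold change was -0.12 (standard error 0.19, 95% interval -0.55 to 0.32, adjusted p = 1.00 from edgeR). It stayed below 0 each time 1 library was left out, from -0.20 without NK scramble replicate 1 to -0.042 without NK scramble replicate 2.

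IFNAR2, the chain that carries JAK1, lies on the same strand from 33229901 to 33265675. It had 79.0 and 88.0 CPM in the controls, against 75.9 and 105 CPM after knockdown. The knockdown libraries were thus the lowest and the highest of the 4 and differed 1.38-fold from each other. The log2 fold change was 0.11 (standard error 0.22, 95% interval -0.37 to 0.60), and its sign depended on a single library, being -0.14 without NK shADAR1 replicate 2 and 0.33 without NK shADAR1 replicate 1.

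Reads of IFNAR2 are not its own in every case. In GENCODE release 29, 3841 of its 4614 exonic bases, or 83.2%, lie in exons of other genes, IL10RB-DT and IFNAR2-IL10RB. Of the 75-base stretches of its annotated transcripts, 39.8% also occur in a transcript of another gene. The deposited table has a separate entry for the readthrough gene IFNAR2-IL10RB, whose transcripts run from IFNAR2 into IL10RB, a chain shared by the interleukin-10 and type III interferon receptors. The readthrough gene had 13.0 and 8.27 CPM in the controls, against 23.0 and 7.82 CPM after knockdown. It was highest in the library in which IFNAR2 was lowest and lowest in the library in which IFNAR2 was highest. Readthrough counts were 14.1% and 8.59% of the sum of the 2 genes in NK scramble replicates 1 and 2, 23.2% in NK shADAR1 replicate 1 and 6.94% in replicate 2. With both genes added together, a choice made after the data were seen, the sum was 92.0 and 96.3 CPM in the controls, against 98.9 and 113 CPM after knockdown. The 1.38-fold gap between the knockdown libraries became 1.14-fold. Both knockdown libraries lay above both controls, a pattern found in 13.3% of all tested genes. The log2 fold change of the sum was 0.17 (standard error 0.19, edgeR adjusted p = 1.00). IL10RB, which shares the other end of the readthrough transcript, was also lowest in NK shADAR1 replicate 1, with 51.9 and 50.1 CPM in the controls, against 39.8 and 55.6 CPM after knockdown. How the authors' counting divided reads among the 3 genes is not given in the sources used here.

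IFNGR1, the chain that binds interferon gamma and carries JAK1, is encoded on chromosome 6 at 137197484 to 137219449, minus strand. It had 27.8 and 28.5 CPM in the controls, against 26.2 and 26.6 CPM after knockdown. Both knockdown libraries were below both controls, which made it the only 1 of the 7 genes whose groups did not overlap in CPM. Groups did not overlap for 26.0% of all tested genes, and 12.6% were lower in both knockdown libraries. The difference was small and did not pass the test, with a log2 fold change of -0.094 (standard error 0.20, 95% interval -0.53 to 0.34, adjusted p = 1.00 from edgeR). Replicates agreed closely. The 2 knockdown libraries differed 1.02-fold, a gap smaller than that of all but 4.33% of tested genes, and the log2 fold change ranged from -0.11 to -0.082 over the 4 fits that left out 1 library.

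IFNGR2, the second chain of the interferon gamma receptor, carries JAK2 and is needed for the receptor to signal. It lies on the plus strand of chromosome 21 from 33402896 to 33479348. It had 0 counts in NK scramble replicates 1 and 2, 2 counts in NK shADAR1 replicate 1 and 0 counts in replicate 2, among 155924477 counts in all. A limit of 3 counts was set for a count of 0, close to the 1-sided 95% Poisson limit. It is 0.0498 to 0.0516 FPKM in the 3 libraries at 0, where FPKM are counts scaled for transcript length and depth. The transcript length used for these limits, 1508 bases, is the one implied by the 2 counts and 0.035 FPKM of NK shADAR1 replicate 1. Intervals and limits of this kind cover counting error only, and not error in that length. IFNGR1 was at least 272-fold and 274-fold higher per length than IFNGR2 in NK scramble replicates 1 and 2 and at least 245-fold higher in NK shADAR1 replicate 2. In NK shADAR1 replicate 1 the ratio was 376-fold, with an exact 2-sided 95% Poisson interval of 104-fold to 3108-fold. The lower limits of the other libraries rest on the 3 counts and are less strict than this interval.

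The surroundings of IFNGR2 were also measured. On one side of it on chromosome 21 lies IFNAR1, with 1606 to 1899 counts per library. On the other side lies DNAJC28, with only 5 to 16 counts, and beyond it GART, an enzyme of purine synthesis, with 7470 to 9562 counts. TMEM50B, with 734 to 985 counts, overlaps IFNGR2 on the opposite strand and its exons cover 380 of the 2960 exonic bases of IFNGR2, or 12.8%. No stretch of 75 bases in the annotated IFNGR2 transcripts occurred in a transcript of another gene. Of 267 genes of the ribosome, proteasome, RNA polymerase, spliceosome, chaperonin and respiratory chain, 2 had at most 3 counts over the 4 libraries, and these were the tissue-restricted RPL10L and PSMB11. The table holds 152 gene entries that are not in GENCODE release 29, 16 of them with at least 100 counts in each library, and whether any of these shares reads with IFNGR2 was not tested. In the whole table, 29.2% of genes had at most 2 counts in all 4 libraries together.

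JAK1, the kinase shared by all interferon receptors and by the receptors of the common gamma chain, is encoded on chromosome 1 at 64833229 to 64966504, minus strand, and was the most abundant of the 8 genes. It had 330 and 371 CPM in the controls, against 394 and 341 CPM after knockdown. The groups overlapped, and the log2 fold change was 0.068 (standard error 0.20, 95% interval -0.37 to 0.51). It was -0.016 without NK scramble replicate 1 and -0.037 without NK shADAR1 replicate 1, so its sign was not stable.

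JAK2, the kinase of IFNGR2 and of several receptors for blood cell growth factors, lies on the plus strand of chromosome 9 from 4984390 to 5128183. It had 6.96 and 5.85 CPM in the controls, against 7.14 and 6.85 CPM after knockdown, from 230 to 281 counts per library. NK scramble replicate 2 was the lowest and the other 3 libraries were close together. The log2 fold change of 0.13 (standard error 0.27, 95% interval -0.47 to 0.73) had the widest interval of the 7 genes. Leaving out NK scramble replicate 2 gave 0.0023, and leaving out NK scramble replicate 1 gave 0.25.

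JAK3, the kinase of the common gamma chain, is encoded on chromosome 19 at 17824780 to 17848071, minus strand. It had 135.6 and 136.0 CPM in the controls, against 163 and 108 CPM after knockdown. The controls were nearly equal, while the knockdown libraries lay on opposite sides of them and differed 1.51-fold, a gap larger than that of 82.5% of tested genes. The group means were 136 ± 0.282 and 135 ± 38.6 CPM (mean ± SD, n = 2), and the log2 fold change was -0.0066 (standard error 0.23, 95% interval -0.51 to 0.50). Leaving out NK shADAR1 replicate 1 gave -0.33, and leaving out NK shADAR1 replicate 2 gave 0.26.

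TYK2, the kinase of IFNAR1 and of the interleukin-12 receptor, lies on the minus strand of the same chromosome from 10350529 to 10380676. It had 202 and 159 CPM in the controls, against 213 and 151 CPM after knockdown. Replicate 1 was higher than replicate 2 in each group, 1.27-fold in NK scramble and 1.41-fold in NK shADAR1. The log2 fold change between the groups was 0.012 (standard error 0.23, 95% interval -0.50 to 0.52), and it was -0.26 without NK shADAR1 replicate 1, 0.24 without NK shADAR1 replicate 2, 0.19 without NK scramble replicate 1 and -0.16 without NK scramble replicate 2.

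The deposited FPKM of TYK2 gave another picture than its counts. They were 62.4 and 48.6 for the controls and 83.8 and 48.6 for the knockdown libraries. The transcript length that counts and FPKM imply together was 3275 and 3212 bases in NK scramble, 2641 bases in NK shADAR1 replicate 1 and 3011 bases in replicate 2, a 1.24-fold spread that was the widest of the 7 tested genes. On the log2(FPKM + 1) scale the difference between the groups was 0.21 (standard error 0.27, adjusted p = 1.00 from limma), against 0.012 from counts, and neither passed.

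For 6 of the 7 tested genes, the gap between replicates in at least 1 group was larger than the change between groups, IFNGR1 being the exception. The larger gaps between the knockdown libraries, in JAK3, TYK2 and IFNAR2, did not share a direction, since JAK3 and TYK2 were higher in replicate 1 and IFNAR2 in replicate 2. Transcript length moved with this gap across the table. Among 10293 genes above 1 CPM in every library, the log2 ratio of NK shADAR1 replicate 1 to replicate 2 had a median of -0.11 for 4863 genes with an implied length under 2500 bases and 0.16 for 1975 genes over 4500 bases. For the NK scramble replicates the medians were -0.013 and -0.036. JAK3 has an implied length of 5276 to 5334 bases and IFNAR2 of 1946 to 2090 bases. TYK2, at 2641 to 3275 bases, falls in neither length class. The part of length in the gaps of these genes was not tested.

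**Figure D2:**
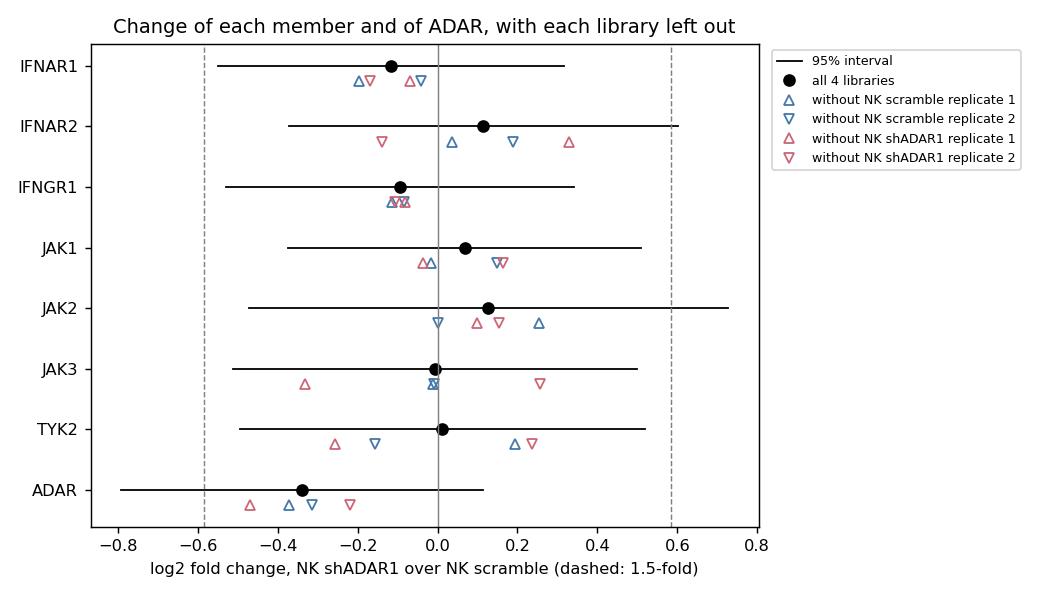
Black points are log2 fold changes from all 4 libraries with 95% intervals, and open triangles are the fits that left out the library named in the legend. JAK3 moves from -0.33 to 0.26 and IFNAR2 from -0.14 to 0.33 with the knockdown library left out, while IFNGR1 stays between -0.11 and -0.082.

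Levels were compared between genes in FPKM, which divide by transcript length. From the highest, the mean FPKM over 4 libraries was 73.3 ± 7.10 for JAK1, 60.9 ± 16.6 for TYK2, 43.3 ± 6.004 for IFNAR2, 25.6 ± 5.07 for JAK3, 14.0 ± 0.496 for IFNAR1, 13.3 ± 0.485 for IFNGR1 and 1.00 ± 0.106 for JAK2 (SD, n = 4). IFNGR2 was last, listed at 0 FPKM in 3 libraries and at 0.035 FPKM in NK shADAR1 replicate 1. The ranges over the 4 libraries overlapped between JAK1 and TYK2, between TYK2 and IFNAR2 and between IFNAR1 and IFNGR1, and these neighbours are not set apart by their spread. The ranges did not overlap between IFNAR2 and JAK3, between JAK3 and IFNAR1, between IFNGR1 and JAK2 or between JAK2 and IFNGR2. Both NK scramble libraries had this order, TYK2 stood above JAK1 in NK shADAR1 replicate 1, and IFNAR2 stood above TYK2 in replicate 2. In FPKM, groups did not overlap for 3 of the 7 genes, where 25.8% of all tested genes did not. IFNAR1 had 14.4 and 14.5 FPKM against 13.5 and 13.6, IFNGR1 had 13.7 and 13.7 against 13.2 and 12.6, and JAK2 had 1.001 and 0.851 against 1.075 and 1.076. JAK1 lay above 89.5% of tested genes in mean FPKM and JAK2 above 16.2%.

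**Figure D3:**
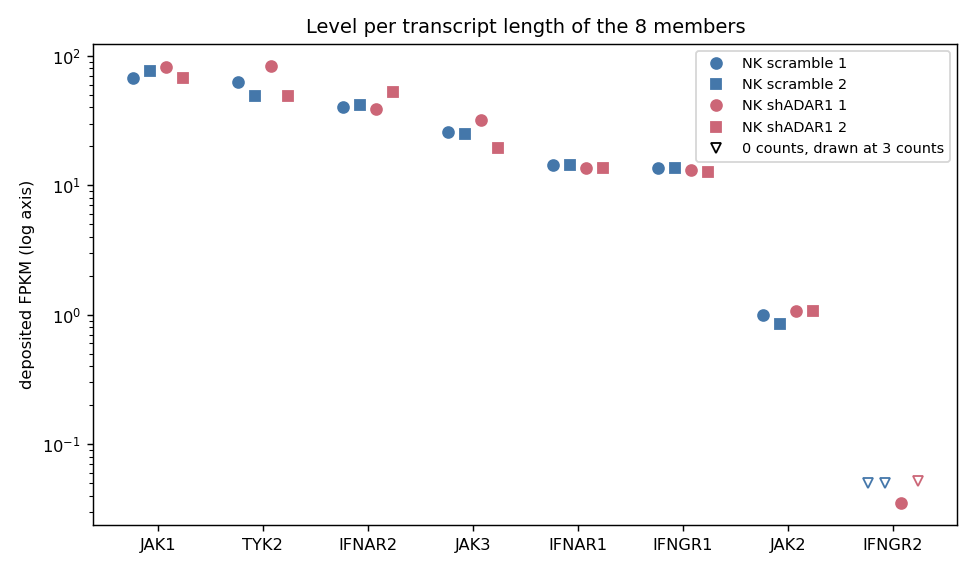
Points are deposited FPKM in each library on a log axis, with the 8 genes ordered by their mean, and open triangles stand for 0 counts drawn at the limit of 3 counts. JAK2 lies near 1.00 FPKM, below IFNGR1 at 12.6 to 13.7 FPKM. IFNGR2 lies at 0.035 FPKM in NK shADAR1 replicate 1, and its open triangles lie at 0.0498 to 0.0516 FPKM.

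The balance within each signaling pair was described by FPKM ratios. IFNAR2 exceeded IFNAR1 2.82-fold and 2.86-fold in NK scramble replicates 1 and 2, 2.88-fold in NK shADAR1 replicate 1 and 3.83-fold in replicate 2. The first 3 libraries were nearly equal, so the higher group mean of 3.36 ± 0.669 against 2.84 ± 0.0324 (SD, n = 2) rested on the last library in these FPKM. The FPKM of IFNAR2 leave out the readthrough entry. Its counts were 23.2% of IFNAR2 plus IFNAR2-IL10RB in NK shADAR1 replicate 1 and 6.94% in replicate 2. With these counts added, IFNAR2 was higher in both knockdown libraries than in both controls, as given above. The ratio to IFNAR1 was not computed for that sum. JAK1 exceeded TYK2 1.09-fold and 1.56-fold in NK scramble and stood at 0.980-fold and 1.38-fold in NK shADAR1 replicates 1 and 2. JAK1 exceeded JAK2 67.8-fold and 89.2-fold in the controls, against 76.4-fold and 62.5-fold after knockdown. For JAK1 over JAK3 the ratios were 2.63 and 3.03 for the controls, against 2.57 and 3.43 after knockdown. These 3 kinase ratios overlapped between the groups. The ratios were not tested.

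The promoters of the 2 kinases at the ends of this range are shown because their levels differ most among the kinases. RefSeq gives 3 windows for JAK1, with 15, 9 and 43 CG, and 4 for JAK2, with 11, 39, 28 and 14 CG, and the window richest in CG was taken for each gene. The sequences are from RefSeq (GRCh38.p14), on the strand of the gene, and hold bases before a RefSeq start that are in no exon of GENCODE release 29. The JAK2 stretch lies inside the span of the gene given above, in an intron of the transcript that starts furthest upstream and before the start of the others. Capitals mark CG dinucleotides, of which there are 35 in the 250 bases of JAK1 at chr1:64966550-64966799 and 30 in the 197 bases of JAK2 at chr9:4984836-4985032.
JAK1: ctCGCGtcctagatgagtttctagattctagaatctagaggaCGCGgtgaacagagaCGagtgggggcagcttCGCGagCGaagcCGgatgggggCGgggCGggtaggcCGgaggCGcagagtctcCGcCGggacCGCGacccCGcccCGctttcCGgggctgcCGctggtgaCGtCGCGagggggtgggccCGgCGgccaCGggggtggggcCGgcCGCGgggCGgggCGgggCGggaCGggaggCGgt
JAK2: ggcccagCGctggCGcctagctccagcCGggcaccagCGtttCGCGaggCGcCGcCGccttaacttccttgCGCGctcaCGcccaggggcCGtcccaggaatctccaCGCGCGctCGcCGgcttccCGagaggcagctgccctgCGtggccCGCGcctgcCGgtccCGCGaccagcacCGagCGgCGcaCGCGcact
The whole window of this JAK2 start held more CG than 91.3% of all windows and that of this JAK1 start more than 95.02%. The other windows were less rich, above 51.1% and 41.6% of all windows for JAK1 and above 45.3%, 73.8% and 49.7% for JAK2. Which of these starts the cells used was not tested. The RefSeq window of IFNGR2 held 44 CG, more than 95.8% of windows. It is not shown, since its bases before the start lie in annotated exons.

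Interferons induce their target genes through the interferon-stimulated response element, searched here as GAAA, 2 bases of any kind and GAAA again, and the gamma-activated site, searched as TTCNNNGAA, each on both strands. Neither was found in any of 14 RefSeq windows of 7 of the genes (IFNAR2 had no entry), where 3.57% of all 35116 windows held the first and 7.66% the second. Among windows of the type I interferon target list, 28 of 48 held the first. Matches in MX1 and BST2, among the 4 most abundant genes of that list, are shown to let the element be seen, each in 30 bases with the match in capitals. MX1 has matches at chr21:41420559-41420588 on the plus strand and chr21:41431844-41431873 on the minus strand, and BST2 at chr19:17405741-17405770 on the minus strand.
MX1: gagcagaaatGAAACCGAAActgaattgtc
MX1: tttattcacgGAAAGAGAAAcagagtgacc
BST2: tcctttctggGAAACTGAAActgaaaacct
A match or its absence describes these windows only. MX1, which encodes an antiviral GTPase, had 565 and 519 CPM in the controls, against 293 and 60.8 CPM after knockdown. BST2, which encodes tetherin, had 362 and 389 CPM in the controls, against 250 and 302 CPM after knockdown. In both genes the groups did not overlap, and neither passed edgeR's test after adjustment (log2 fold changes -1.62 and -0.44, adjusted p = 1.00 for each).

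The rest of the pathway was described with lists of its ligands, receptors, factors, inhibitors and targets. Of 21 interferon genes, 12 had 0 counts in all libraries and 2 were tested. IFNG, which encodes interferon gamma, had 32.3 and 60.0 CPM in the controls, against 19.7 and 22.5 CPM after knockdown. Its log2 fold change was -1.13 (standard error 0.28, unadjusted p = 0.0024 in edgeR), and it was not called after adjustment. Of all tested genes, 0.779% were lower at an unadjusted p under 0.05. IFNB1, which encodes interferon beta, had at most 0.458 CPM in any library. Interferon gamma RNA was thus present in each library in which IFNGR2 had 0 or 2 counts. IFNLR1, the specific chain of the type III interferon receptor, also had 0 counts in all 4 libraries.

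Among the other receptors that use these kinases, 0 were called in any of 4 lists. Of 7 tested receptors of the common gamma chain family, 4 had log2 fold changes above 0 and 3 below, with a median of 0.041, and 1 was lower at an unadjusted p under 0.05, where 0.779% of all tested genes were. The median did not keep its sign, being -0.14 without NK scramble replicate 1, 0.0038 without NK scramble replicate 2, -0.094 without NK shADAR1 replicate 1, -0.054 without NK shADAR1 replicate 2 and 0.00013 with the replicate number as a block. The gene lower at an unadjusted p under 0.05 was IL15RA, the specific chain for interleukin-15, with 45.1 and 28.5 CPM in the controls, against 24.7 and 24.4 CPM after knockdown. IL2RB, the signaling chain for interleukin-2 and interleukin-15, had 1029 and 983 CPM in the controls, against 1279 and 790 CPM after knockdown, a log2 fold change of 0.041 (standard error 0.25). Like JAK3, which signals with it, IL2RB had knockdown libraries on opposite sides of the controls. IL2RG, the common gamma chain itself, had 430 and 526 CPM in the controls, against 461 and 541 CPM after knockdown, and did not show that pattern. The 5 tested receptors of the interleukin-12 and gp130 families had a median of -0.044 and the 6 tested receptors that use JAK2 a median of -0.091. These also changed sign, to 0.064 and 0.089 without NK scramble replicate 1 and, for the former, to 0.21 without NK shADAR1 replicate 2. IL12RB2, the most abundant of the former, had 151 and 168 CPM in the controls, against 147 and 161 CPM after knockdown. The 4 tested type III interferon and interleukin-10 family chains had a median of 0.033, which was -0.070 without NK scramble replicate 2 and 0.19 without NK scramble replicate 1.

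Below the kinases, 6 of 8 STAT and IRF9 genes had log2 fold changes under 0, with a median of -0.15 and 0 called. STAT5B, which acts below JAK3, had 155 and 149 CPM in the controls, against 138 and 166 CPM after knockdown, so its groups overlapped. Of 19 tested inhibitors and phosphatases, 11 were below 0 and 8 above, with a median of -0.021. The median was 0.029 without NK shADAR1 replicate 1 and 0.12 without NK shADAR1 replicate 2. In edgeR, 2 in each direction had an unadjusted p under 0.05, where 0.779% of all tested genes were lower and 1.70% higher. USP18, which binds IFNAR2 and dampens its signaling and is also on the type I target list, had 37.5 and 39.3 CPM in the controls, against 21.6 and 15.5 CPM after knockdown (log2 fold change -1.05, standard error 0.22). CISH, a feedback inhibitor of interleukin-2 signaling, had 203 and 151 CPM, against 85.1 and 128 CPM. In both genes the knockdown libraries lay below the controls. PTPN6, which encodes the phosphatase SHP-1, had 16.2 and 26.2 CPM, against 31.3 and 35.5 CPM, and lay higher in both knockdown libraries. None of these passed after adjustment. PTPN1 and PTPN11, phosphatases that act on JAK signaling, had log2 fold changes of -0.051 and -0.00074. PTPRC, which encodes the phosphatase CD45, had 582 and 503 CPM in the controls, against 945 and 750 CPM after knockdown, an unadjusted p of 0.0135 in edgeR, where 1.70% of all tested genes were higher at an unadjusted p under 0.05.

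The target lists had lower medians than the receptors and kinases, and since they were drawn up with results of these libraries known, their direction is not independent evidence. Of 45 type I interferon targets, 44 had log2 fold changes below 0, with a median of -0.67, and in 30 of them both knockdown libraries were below both controls, a pattern found in 12.6% of all tested genes. None was called, and 15 were lower at an unadjusted p under 0.05 (edgeR), where 0.779% of all tested genes were. The median was -0.23 without NK shADAR1 replicate 2 and -1.30 without NK shADAR1 replicate 1. Of 22 tested interferon gamma targets, 14 were below 0, with a median of -0.099, and 8 had both knockdown libraries below both controls. None of the 22 was called, and at an unadjusted p under 0.05 (edgeR) 2 were lower and 0 higher. In this list WARS1, a tRNA synthetase, had 429 and 301 CPM in the controls, against 198 and 212 CPM after knockdown (unadjusted p = 0.0037 in edgeR). GBP5, a guanylate-binding protein of the same list, had 336 and 432 CPM against 483 and 383 CPM. For the 7 receptor and kinase genes the median was 0.012, and 1 had both knockdown libraries below both controls. Over all tested genes the median log2 fold change was 0.000028. The difference between the lists was not tested.

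IFNAR1 had the largest test statistic of the 7 genes, and the genes whose log2 CPM, centred on its mean over the 4 libraries, differed least from it were SCAMP3, MAP3K20 and ARF6. Their root mean square differences from IFNAR1 were 0.0093, 0.0105 and 0.0107 on the log2 scale. SCAMP3 had 92.0 and 103 CPM in the controls, against 86.8 and 94.3 CPM after knockdown. With 4 libraries and 11810 genes to choose from, such likeness is a description only.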

How the data were processed

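Poly(A)-selected RNA of NK-92 cells was sequenced by the authors on an Illumina instrument, and fastp 0.18.0 is named in the submitters' processing notes. The authors deposited estimated counts per gene, not scaled for depth, and FPKM values. The aligner, counting program and build are not given in the sources used here. Of 20323 Ensembl identifiers, 20301 matched a gene symbol.

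Estimated counts were rounded, filtered with filterByExpr at a minimum of 10, TMM-scaled and analysed in edgeR 4.0.16 (quasi-likelihood test, R 4.3.3) without covariates. All adjusted p-values are from edgeR unless DESeq2 1.42.0 or limma 3.58.1 is named. Standard errors and 95% intervals come from the F statistic. The scripts were tested on simulated data. Members and lists were chosen with earlier results of these data known. Named genes are the members, ADAR, at most the 4 most abundant tested genes of each list, genes that overlap a member, and the 3 genes most like the member with the largest F. Other genes (USP18, CISH, PTPN6, IL15RA, IFNLR1, RPL10L, PSMB11, GART, DNAJC28 and markers at 0 counts) were named after their values were seen. Exons and positions are from GENCODE release 29. Depth leaves counting error small except for IFNGR2 and JAK2. Alternatives were DESeq2, other scalings and filters, length regression, FPKM in limma, a replicate block and each library left out.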

Additional observations from a re-analysis of the deposited data

How the results depend on the processing

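In every alternative, 0 receptor and kinase genes were called and 0 had an unadjusted p under 0.05 (lowest 0.221, for JAK3 and IFNAR2 without NK shADAR1 replicate 1). Precision is limited by 2 libraries per group, and for IFNGR2 by depth.

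Leaving out 1 library moved log2 fold changes between -0.14 and 0.33 for IFNAR2, -0.037 and 0.16 for JAK1, -0.33 and 0.26 for JAK3 and -0.26 and 0.24 for TYK2. JAK3 was 0.0045 under upper quartile scaling and 0.0036 with a mean of at least 50 counts. IFNAR1, IFNGR1, JAK2 and ADAR kept their sign in all alternatives. The count of called genes over the whole table, 0 in edgeR, was 47 without NK scramble replicate 1, 2 without NK scramble replicate 2, 16 without NK shADAR1 replicate 1 and 1 without NK shADAR1 replicate 2, and 213 with an unadjusted p under 0.05 at the same fold. A group left with 1 library is assumed to vary like the other. The replicate numbers mark no shared animal or batch in the labels, but the deviations of same-numbered libraries correlated at r = 0.308 across genes. With the replicate number as a block, 13 genes were called, 0 of them receptors or kinases, and ADAR had a log2 fold change of -0.34 (adjusted p = 0.853).

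List medians with 1 library left out ranged from -0.068 to 0.15 for the receptors and kinases, -0.070 to 0.19 for type III interferon and interleukin-10 family chains, -0.14 to 0.0038 for common gamma chain receptors, -0.018 to 0.21 for interleukin-12 and gp130 receptors, -0.17 to 0.089 for receptors that use JAK2, -0.15 to -0.068 for STAT factors and IRF9, -0.024 to 0.12 for inhibitors, -1.30 to -0.23 for type I interferon targets and -0.16 to -0.062 for interferon gamma targets. With the replicate block the median was 0.00013 for common gamma chain receptors and -0.064 for gamma targets. With length regressed out these were -0.019 and -0.049. On log2(FPKM + 1) and log2(FPKM + 0.1), medians were -0.097 and -0.10 for STAT factors and IRF9, 0.019 and 0.029 for inhibitors, and -0.057 and -0.058 for gamma targets. Gamma targets stood at -0.12 with a mean of at least 50 counts. The cause was not tested.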
